A study of Mus musculus with 10 samples.

Results

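The genes described here are 10 heat shock genes of the mouse that are of interest in testis because several of them have relatives made mainly in male germ cells. They were chosen by name: the testis paralogs Hspa1l, Hspa2 and Hspa4l, the stress-inducible genes Hspa1a, Hspa1b, Hsp90aa1 and Dnajb1, the constitutively made Hspa8, and the heat shock factors Hsf1 and Hsf2. Each gene was taken with 2 kb beyond both of its ends on mm10, and these 10 loci held 708 covered cytosines on 487 CpGs, out of 1988759 cytosines in all. The assay was reduced representation bisulfite sequencing, in which a restriction enzyme enriches CpG-rich fragments and bisulfite turns unmethylated cytosines into bases read as thymine. DNA came from the testis of F2 mice, in 5 libraries labelled arsenic and 5 labelled control. Beyond generation, tissue and group, no strain, age, dose or exposed ancestor is labelled. It is not stated that libraries of 1 group are from different animals, so p-values reflect variation among libraries, part of which may be technical.

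Heat shock proteins are chaperones that bind unfolded proteins. Those of the Hsp70 family work with Hsp40 partners such as Dnajb1, which pass on the client and speed up ATP hydrolysis, and with exchange factors such as Hspa4l, while Hsp90 acts on later folding steps. Heat shock factors are transcription factors that bind heat shock elements in promoters, and Hsf1 drives the response to heat and to toxic metals, arsenite among them. In mouse testis Hspa2 is made in spermatocytes and is needed for male meiosis, and Hspa1l is made in spermatids. A promoter rich in CpGs is usually unmethylated whether or not the gene is active, whereas the body of a gene is often methylated. The table holds no RNA, and a level in whole testis is an average over its cells, in which more methylation in a few cells and less in many cannot be told apart.

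Promoter sequences show how differently the loci could be read. RefSeq, on GRCm38.p6 (the assembly behind mm10), gives windows of 250 bases before to 50 after the start, and 7 of the 10 genes were matched; the others are Hsp90aa1, Hspa8 and Hsf1. The windows of Hspa1l (chr17:34972453-34972752, plus strand), Hspa1a (chr17:34972107-34972406, minus strand), Hspa1b (chr17:34959189-34959488, minus strand) and Hsf2 (chr10:57486135-57486434, plus strand) are printed because the covered CpGs near their starts, or the near identity of a pair, carry the comparisons that follow. In the lines for Hspa1l, Hspa1a and Hsf2, capitals mark the CpGs that were covered in every library. In the line for Hspa1b, where no CpG of the window was covered, capitals mark the bases that differ from Hspa1a.
Hspa1l: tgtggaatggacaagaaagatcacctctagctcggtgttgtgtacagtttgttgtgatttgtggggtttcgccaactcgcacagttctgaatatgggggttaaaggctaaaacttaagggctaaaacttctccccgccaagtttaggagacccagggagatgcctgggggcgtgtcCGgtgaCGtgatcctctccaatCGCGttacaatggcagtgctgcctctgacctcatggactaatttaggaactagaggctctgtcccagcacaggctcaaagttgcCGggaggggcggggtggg
Hspa1a: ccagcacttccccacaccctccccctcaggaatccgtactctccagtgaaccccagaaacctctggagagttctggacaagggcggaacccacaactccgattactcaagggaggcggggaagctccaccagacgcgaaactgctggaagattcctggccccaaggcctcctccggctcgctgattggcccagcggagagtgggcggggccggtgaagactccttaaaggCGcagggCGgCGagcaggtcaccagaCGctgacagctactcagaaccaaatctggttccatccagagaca
Hspa1b: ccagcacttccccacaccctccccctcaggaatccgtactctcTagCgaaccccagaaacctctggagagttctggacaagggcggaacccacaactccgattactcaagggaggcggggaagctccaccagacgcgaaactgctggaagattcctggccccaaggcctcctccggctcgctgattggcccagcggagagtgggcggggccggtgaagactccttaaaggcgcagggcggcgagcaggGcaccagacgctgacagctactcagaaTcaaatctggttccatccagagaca
Hsf2: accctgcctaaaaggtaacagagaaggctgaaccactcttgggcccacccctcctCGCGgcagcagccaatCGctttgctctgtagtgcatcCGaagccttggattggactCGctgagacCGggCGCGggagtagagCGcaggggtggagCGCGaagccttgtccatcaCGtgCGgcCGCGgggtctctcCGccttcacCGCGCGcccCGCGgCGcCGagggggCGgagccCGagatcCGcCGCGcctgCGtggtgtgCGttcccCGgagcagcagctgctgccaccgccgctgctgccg

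The Hspa1l window holds 11 CpGs, of which 5 were covered, and the Hsf2 window 34, of which 31 were covered. Hspa1a has 15 CpGs there with 4 covered, and Hspa1b 16 with 0 covered. The Hspa1a and Hspa1b windows are identical at 296 of 300 bases (98.7%). With the Hspa1b base first, positions counted from 1 at the 5′ end of the window, and then the Hspa1a base, the differences are T44C, C47T, G249T and T276C; C47T is in a CpG of Hspa1b that Hspa1a lacks. Reads from this pair can be hard to place, so levels of Hspa1a and Hspa1b are uncertain where the genes match. The windows of Hspa2 (21 CpGs), Hspa4l (42 CpGs) and Dnajb1 (36 CpGs) held no covered CpG, and their covered cytosines lay farther out.

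A few short motifs were looked for on both strands of these windows. The palindromic heat shock element core GAANNTTC was found in Hspa1a and Hspa1b, beginning 104 bases before the start in both, and in no other member's window; 7.35% of all 17491 promoter windows hold it. The reverse arrangement TTCNNGAA was in 0 of the 7 windows, against 7.64% of all promoters. TGACGT, a core of elements bound by cAMP-responsive factors, was found in Hspa1l alone among the 7, beginning 71 bases before the start, and in 8.71% of all promoters. CCAAT occurred in 6 of the 7, all but Hspa4l, against 39.2% of all promoters. CCGG, the site cut by the enzyme usually used for this assay, occurred in all 7 and in 61.8% of all promoters, and no match to any of these motifs overlapped another. A match is a run of letters, not evidence that a factor binds there.

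Depth over the whole table was uneven. Reads over the covered cytosines totalled 87658994 to 100355708 in the arsenic libraries and 69771871 to 92434984 in the control libraries, with median coverage of 35 to 40 reads per cytosine in arsenic and 27 to 36 in control. Full methylation was read at 11.1% to 14.9% of cytosines in the 5 arsenic libraries. It was read at 16.9% in control 4 and 18.8% in control 5, above the other 3 control libraries at 12.7% to 13.5%. Values without control 4, control 5 or both are therefore given for several loci where leaving one out moved the difference by over 1.5 times. Within 1000 bp of the start, 6 germ cell genes (Dazl, Ddx4, Sycp3, Mael, Stra8 and Tex101), which are largely methylated in somatic tissues, averaged 12.7% to 20.1% in arsenic and 15.5% to 22% in control. For 4 imprinted genes (Nap1l5, Zrsr1, Airn and Nnat), whose maternal copy is methylated in somatic cells and which male germ cells leave unmethylated, these averages were 8.33% to 11.8% in arsenic and 7.79% to 15.1% in control. The share of somatic cells in each library was not measured.

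Across the 10 loci, the level of a locus is the mean methylation of its covered cytosines, each weighted equally. All 10 were methylated less than most genes: over both groups they stood at 2.64% (Hspa8) to 22.6% (Hspa1a), between the 4.68th and 30th percentile of 17641 protein-coding loci, whose median was 41.1% with quartiles of 18.5% and 67.4%. The testis paralogs did not share a level. Hspa2 averaged 3.50%, Hspa1l 18.1% and Hspa4l 20.9%, while the 7 other members ran between 2.64% and 22.6% with a median of 6.62%. These levels average whichever parts of a gene were covered, near the start or deep in the gene, as described for each gene in turn.

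**Figure D1:**
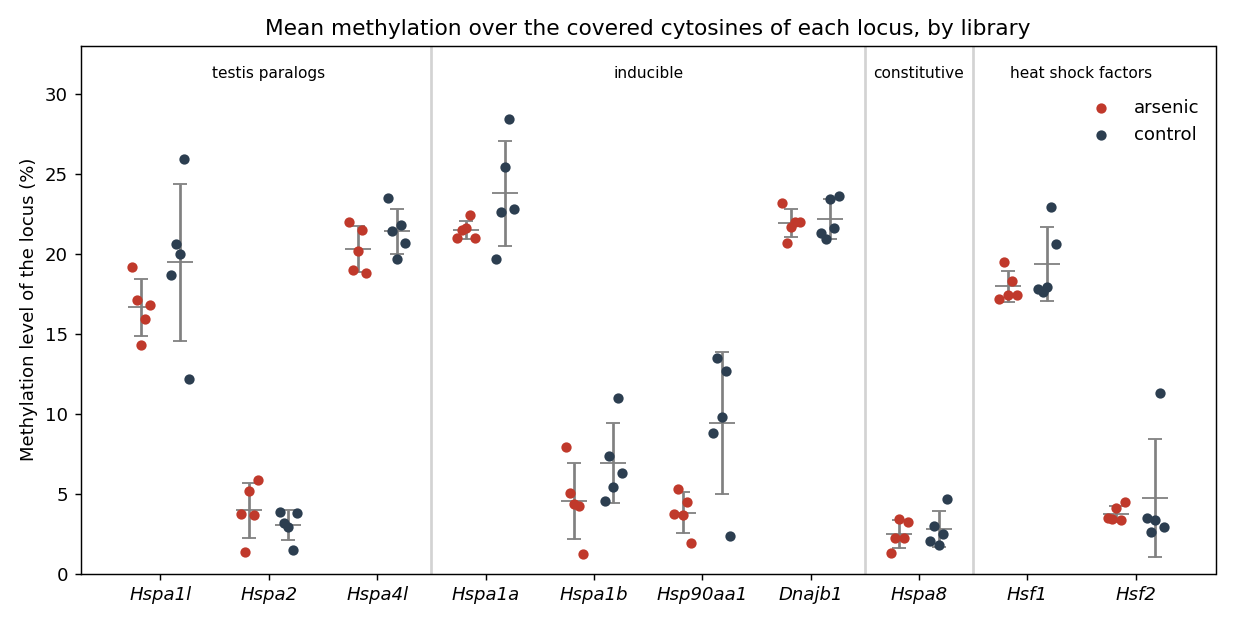
Methylation level (%) of each locus in the 5 arsenic libraries (red, left of each pair) and the 5 control libraries (dark, right), with mean and SD in grey. The groups overlap at all 10 loci, and the widest gap between means is at Hsp90aa1, 3.81% in arsenic and 9.43% in control.

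No member was called different. Calls needed 10 percentage points or more between the groups' read-weighted levels and, in a quasi-binomial logistic test adjusted by the Benjamini-Hochberg method, an adjusted p below 0.05, and they numbered 0 of the 10 loci and 0 of all 17641 loci (0%). With limma, fitted to log2 methylated over unmethylated reads, 0 of the 10 and 1 of all loci were called. At Hspa2, Hspa1b, Hsp90aa1, Hspa8 and Hsf2 the control mean was 2.79% (Hspa8) to 9.43% (Hsp90aa1). A fall of 10 percentage points could not be reached at these loci. An unadjusted p under 0.05 was found at 2 of the 10, Hsp90aa1 and Dnajb1, against 5.71% of all loci; both were lower in arsenic, as were 4.30% of all loci, and the lowest adjusted p among the members was 0.846. The arsenic and control libraries failed to overlap at 0 of the 10, against 0.822% of all loci. The arsenic mean was lower at 9 of the 10, all but Hspa2, where 57.7% of all loci were lower. The median difference, arsenic minus control, was -1.25 percentage points over the members, -1.13 over the 3 testis paralogs, -2.32 over the 4 inducible genes and -0.208 over all loci. Hspa1l, a testis paralog, and Hspa1a, an inducible gene, share 32 cytosines, so the count and the class medians do not rest on separate cytosines. Without control 4 and control 5, 4 of these 9 loci (Dnajb1, Hspa8, Hsf1 and Hsf2) had the higher mean in arsenic.

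**Figure D2:**
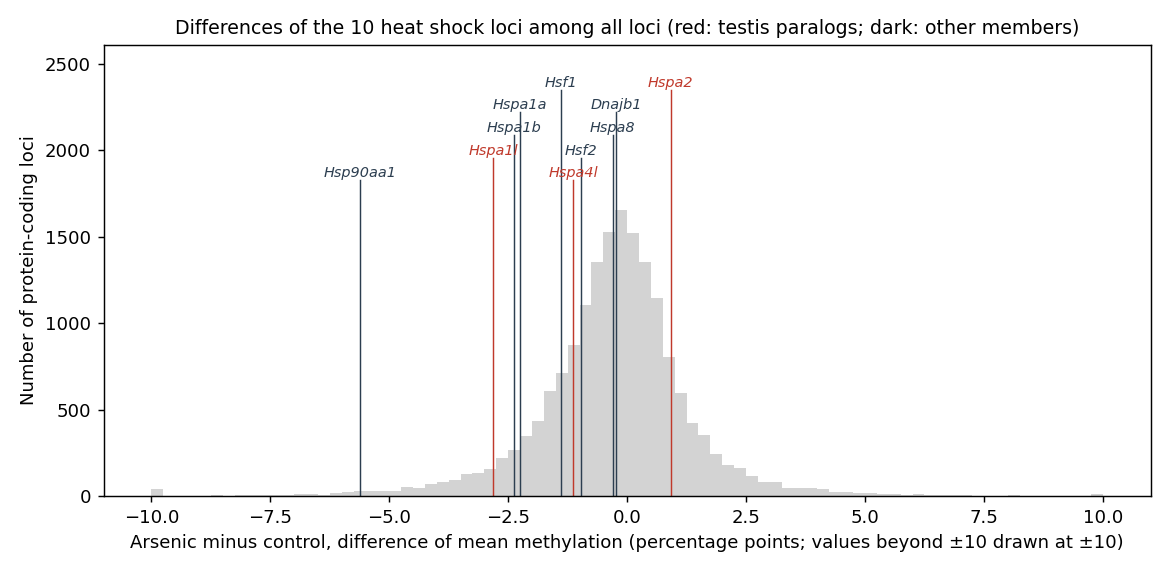
Histogram of the difference in mean methylation, arsenic minus control in percentage points, over 17641 protein-coding loci, with lines for the testis paralogs (red) and the other members (dark). Hsp90aa1 lies at -5.62 in the lower tail, and the other 9 lie between -2.81 (Hspa1l) and 0.919 (Hspa2).

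Of 27 separate 1 kb tiles with at least 3 covered CpGs in these loci, 0 were called and 1 (3.70%) had an unadjusted p under 0.05, lower in arsenic, against 5.80% of 165978 tiles genome-wide in either direction and 3.34% in that one (0% of all tiles were called). Among the 708 single cytosines 0 were called (0% of all cytosines), and 59 (8.33%) had an unadjusted p under 0.05, against 7.11% of all cytosines. Of these, 51 were lower in arsenic, a direction and p found at 4.05% of all cytosines, and 8 were higher, against 3.06% of all cytosines. They were unevenly shared: Hsp90aa1 held 26 of the 59, all lower in arsenic, and 9 more lay in the stretch shared by Hspa1a and Hspa1l. Cytosines within one fragment are read from the same molecules and are not separate observations. Levels over both groups were under 10% at 18 of the 27 tiles and 585 of the 708 cytosines. Where control is under 10%, a fall of 10 percentage points cannot be reached. Groups that did not overlap were found at 0 tiles and 0 cytosines of the members, against 0.859% and 0.528% genome-wide.

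**Figure D3:**
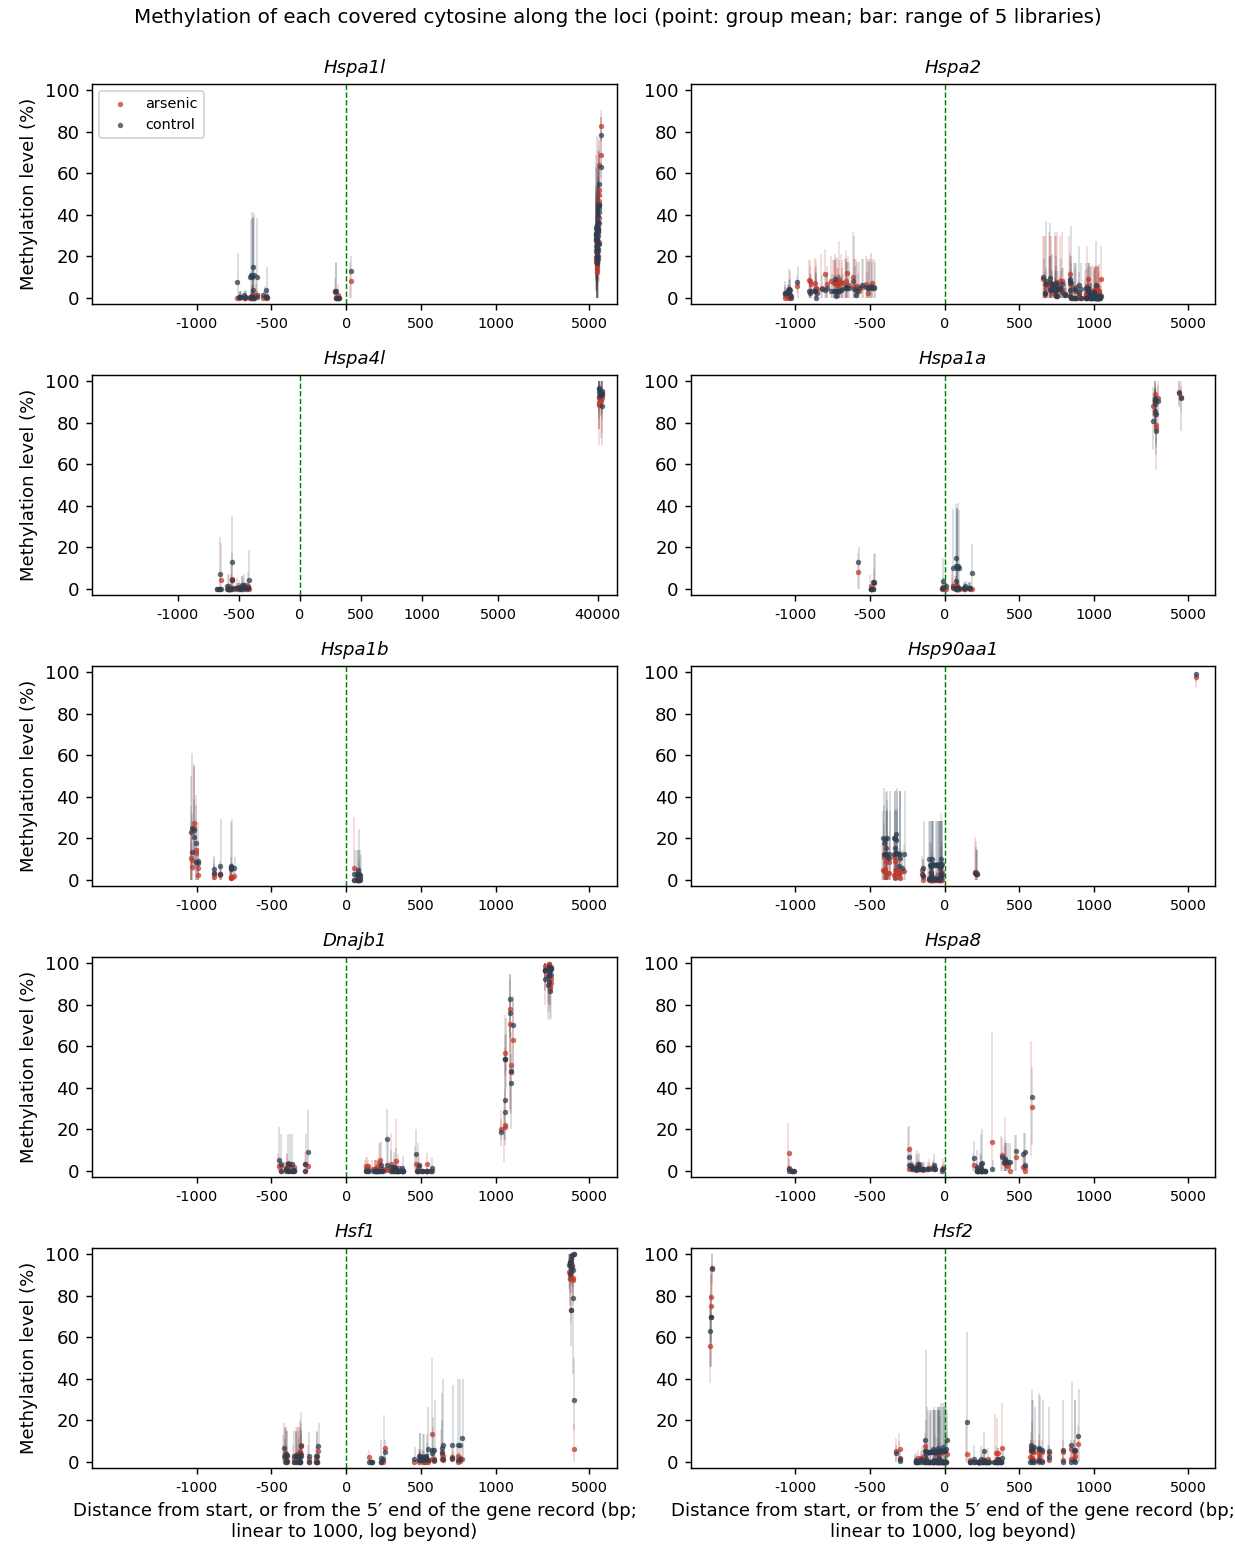
Methylation (%) of every covered cytosine against distance in bp from the RefSeq start, or, for Hsp90aa1, Hspa8 and Hsf1, from the 5′ end of the gene record; points are group means (arsenic red, control dark) and bars the range over 5 libraries. Cytosines near the starts sit low in both groups, Hspa1l has a partly methylated stretch between 5597 and 6128 bp, and the body of Hspa4l is at 91.1% in arsenic and 93.8% in control.

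Hspa1l (gene ID 15482, chr17:34972703-34979228), the spermatid Hsp70, shares its start region with Hspa1a. Their starts lie 547 bp apart on opposite strands, and the windows of 1000 bp on each side of the starts hold the same 32 cytosines on 23 CpGs, so with this window the testis and the inducible paralog have the same values. These cytosines were at 0.526%, 0.878%, 0.841%, 0.850% and 0.284% in arsenic 1 to 5 and at 0.817%, 1.86%, 5.57%, 9.14% and 2.03% in control 1 to 5. Control 1 lies within the arsenic range, and the other 4 control libraries stand above it, control 3 and control 4 farthest. The means were 0.676% ± 0.262 in arsenic and 3.88% ± 3.44 in control (SD, n = 5 each). The quasi-binomial model gave an adjusted p of 0.752 (0.0743 unadjusted). Within 500 bp of the Hspa1l start, 7 of these cytosines averaged 1.76% ± 1.59 in arsenic and 2.86% ± 0.395 in control. The other 25, around the Hspa1a start, averaged 0.372% ± 0.439 in arsenic and 4.17% ± 4.41 in control. No start window was called genome-wide (0% of 10693), and 6.55% had an unadjusted p under 0.05, among them none of the members' 7 windows. Control means of the 7 windows were 1.24% (Dnajb1) to 3.88%, so a fall of 10 percentage points could not be reached in them. The groups failed to overlap at 0 of the 7, against 0.823% of all start windows. Without control 4 the difference shrank to -1.89 percentage points, from -3.21 with all libraries, and at cytosines with at least 20 reads in every library it was -0.799. That last value leaves out the 7 minus-strand cytosines described next, where control 3 had at most 16 reads and control 5 at most 17.

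The difference near this shared start lay mostly on 1 strand. On the minus strand, 7 cytosines between positions 34972062 and 34972104, inside Hspa1a just after its start, were at 3.69% in arsenic 2 and 0% in the other 4 arsenic libraries, against 39.3% in control 4, 13.1% in control 3, 3.36% in control 5 and 0% in control 1 and control 2. On the plus strand of the same stretch, 18 cytosines averaged at most 0.803% in the arsenic libraries, against 3.43% in control 3 and 0% in control 4. At position 34972069 each arsenic library had 0 reads methylated, of 23 to 54, which allows a share of up to 13.0% in arsenic 1 and 5.56% in arsenic 5. Control 4 had 17 of 41 reads methylated there, 41.5% with a 95% Wilson interval of 27.8% to 56.6%, and control 3 had 2 of 15. The counts do not show whether reads came from separate molecules, so these intervals and limits cover counting error only. All 7 minus-strand cytosines had an unadjusted p under 0.05, with adjusted p no lower than 0.662, and the higher control mean came mainly from control 4 and control 3.

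Over its whole locus, Hspa1l stood at 19.2%, 17.1%, 14.3%, 15.9% and 16.8% in arsenic 1 to 5, against 18.7%, 20.6%, 20%, 25.9% and 12.2% in control 1 to 5. The control libraries spread on both sides of the arsenic ones, with means of 16.7% ± 1.82 in arsenic and 19.5% ± 4.92 in control (adjusted p = 0.933, quasi-binomial model). The difference of -2.81 percentage points was -1.19 without control 4 and -4.63 without control 5.

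Farther along, Hspa1l has the one stretch among the members that was both densely covered, with at least 20 CpGs in a tile, and partly methylated. The tile chr17:34978001-34979000 held 41 cytosines on 27 CpGs, 5597 to 6128 bp from the start and within the gene. It stood at 33.9%, 29.8%, 24.8%, 27.6% and 29.7% in arsenic 1 to 5, against 32.7%, 35.2%, 31.2%, 39.0% and 20.1% in control 1 to 5. The control libraries hold both the highest and the lowest level, and the groups overlap throughout, with means of 29.2% ± 3.33 in arsenic and 31.6% ± 7.10 in control (adjusted p = 0.923 by the quasi-binomial model). Among 10215 tiles with at least 20 covered CpGs, 3.23% had a mean level between 20% and 40% and 82.0% were under 10%. Methylation was uneven along the stretch. On the plus strand the first cytosine, 5597 bp from the start, averaged 23.0% in arsenic and 30.3% in control, that at 5732 bp 12.3% in arsenic and 19.1% in control, that at 5924 bp 63.7% in arsenic and 54.7% in control, and that at 6128 bp 82.6% in arsenic and 78.2% in control. The strands of 1 library often differed here, with 15 minus-strand cytosines at 54.7% and 24 plus-strand ones at 27.0% in control 4, and at 15.8% and 40.8% in control 1.

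Hspa2 (gene ID 15512, chr12:76403812-76406938), the spermatocyte Hsp70, was under 10% at nearly every covered cytosine. Of its 138 cytosines on 95 CpGs, the most of any member, 137 averaged under 10%, and 13 had no methylated read in any library. The locus stood at 3.73%, 1.38%, 5.14%, 3.68% and 5.85% in arsenic 1 to 5, against 3.83%, 3.18%, 2.89%, 1.5% and 3.78% in control 1 to 5. Arsenic libraries hold the highest and the lowest level, and the means were 3.96% ± 1.72 in arsenic and 3.04% ± 0.948 in control (SD, n = 5 each; adjusted p = 0.991 by the quasi-binomial model). The difference of 0.919 percentage points was 0.534 without control 4, and with cytosines weighted by reads the sign turned, to -0.161. The low level reached into the gene: 89 cytosines on 46 CpGs between 661 and 1119 bp after the start averaged 2.99% in arsenic and 2.58% in control, and 49 cytosines before the start 5.72% in arsenic and 3.87% in control. The start used, 76404370, lies inside the gene record. The cytosine at 76405413, 1042 bp into the gene, had the smallest p of those higher in arsenic (5.88% ± 8.07 in arsenic, against 0% ± 0 in control; adjusted p = 0.679, quasi-binomial model), and that at 76403233 of those lower (0% ± 0 in arsenic, against 2.33% ± 2.48 in control; adjusted p = 0.668).

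Hspa4l (gene ID 18415, chr3:40744500-40796103), an Hsp110-type exchange factor abundant in mouse testis, was covered at its start and far downstream and hardly between. Near the start, 29 cytosines between 416 and 681 bp before it averaged 0.751% ± 0.624 in arsenic and 1.45% ± 0.843 in control (adjusted p = 0.766, quasi-binomial model). The start used, 40745613, lies inside the gene record, and so do these cytosines. The 8 cytosines 41363 to 43749 bp into the gene averaged 91.1% ± 5.27 in arsenic and 93.8% ± 5.05 in control. No cytosine of Hspa4l lay between 10% and 90%. The locus mean, 20.3% ± 1.44 in arsenic (18.8% to 22%) and 21.4% ± 1.40 in control (19.7% to 23.5%), averages an unmethylated start and a methylated body (adjusted p = 0.993), and its difference of -1.13 percentage points became 0.208 with 5000 bp beyond both ends. At the cytosine of smallest p, position 40744960, arsenic was at 0% ± 0 and control at 7.11% ± 11 (adjusted p = 0.669).

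Among the inducible genes, Hspa1a (gene ID 193740, chr17:34969359-34972156), the major heat-induced Hsp70, combined the low start it shares with Hspa1l with a methylated far end. The 10 cytosines 2763 to 4433 bp downstream of its start, around and past the 3′ end of the gene, averaged 88.2% ± 1.86 in arsenic and 87.4% ± 4.12 in control. The whole locus stood at 21.0%, 21.5%, 21.6%, 22.4% and 21.0% in arsenic 1 to 5, against 19.7%, 22.6%, 25.4%, 28.4% and 22.8% in control 1 to 5. The arsenic libraries lie close together inside the control range, with means of 21.5% ± 0.566 in arsenic and 23.8% ± 3.28 in control (adjusted p = 0.906, quasi-binomial model), and without control 4 the difference was -1.10 percentage points, against -2.25.

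Hspa1b (gene ID 15511, chr17:34956429-34959238), its near copy, starts 12918 bp away on the same strand. It stood at 7.90%, 5.02%, 4.36%, 4.24% and 1.24% in arsenic 1 to 5, against 4.55%, 7.37%, 5.44%, 11% and 6.29% in control 1 to 5, means of 4.55% ± 2.37 in arsenic and 6.93% ± 2.5 in control (adjusted p = 0.961, quasi-binomial model). Arsenic 3, arsenic 4 and arsenic 5 lie below every control library, and the other 2 arsenic libraries lie within the control range. The difference of -2.38 percentage points was -1.36 without control 4, -1.24 without control 4 and control 5, and -1.55 without arsenic 5. Its 7 CpGs between 53 and 95 bp after the start, at the same distances as the minus-strand stretch of Hspa1a, were mostly unmethylated on both strands. There control 4 was at 0% on both strands, and on the plus strand arsenic 1 was at 5.36% and control 2 at 15.4%. None of its 32 cytosines had at least 20 reads in every library. The smallest p of each direction fell on the strands of 1 CpG, at position 34959186 (6.06% ± 13.6 in arsenic, 0% ± 0 in control; adjusted p = 0.683) and position 34959185 (0% ± 0 in arsenic, 2.86% ± 6.39 in control; adjusted p = 0.703).

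Hsp90aa1 (gene ID 15519, chr12:110691036-110696395), the inducible Hsp90, which male germ cells of the mouse need for meiosis, had the widest gap between the groups. The locus stood at 3.75%, 5.31%, 3.64%, 4.49% and 1.89% in arsenic 1 to 5, against 8.79%, 13.5%, 9.78%, 12.7% and 2.35% in control 1 to 5. Control 5 falls within the arsenic range, and the other 4 control libraries stand above all 5 arsenic libraries. Means were 3.81% ± 1.27 in arsenic and 9.43% ± 4.42 in control (SD, n = 5 each), a difference of -5.62 percentage points at the 1.09th percentile of all loci. The unadjusted p of 0.00449 became 0.846 after Benjamini-Hochberg adjustment of the quasi-binomial test, so the locus did not pass. Nearly all of its covered cytosines lay in the tile chr12:110696001-110697000, 69 cytosines on 40 CpGs around the 5′ end, at 2.46% ± 1.28 in arsenic and 8.14% ± 4.48 in control (adjusted p = 0.806).

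A filter on coverage left a smaller gap, but it also removed whole stretches. Median coverage of the locus was 25 to 39.5 reads in the arsenic libraries and 18 to 31 in the control libraries, and 21 of the 70 cytosines had at least 20 reads in every library. At these 21 the difference was -0.671 percentage points (adjusted p = 0.962, quasi-binomial model). Over all 70 the difference was -7.39 without control 5, -4.79 without control 4, -6.88 without both and -4.60 without control 2.

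The libraries that were high differed from stretch to stretch. On the plus strand, 20 cytosines between positions 110696414 and 110696539 averaged 0% to 0.909% in the arsenic libraries, against 27.1% in control 4, 8.61% in control 3 and 2.14% or less in control 1, control 2 and control 5. In control 4 each of these had 14 reads, of which 4 were methylated at 19 of the 20; the table does not say whether they were the same reads. The opposite strand, 21 cytosines, was at 0.739% to 2.55% in arsenic and at 4.20% in control 4. In the next stretch upstream, 15 minus-strand cytosines between 110696667 and 110696803 were at 0% to 8.02% in arsenic, against 6.80%, 39.0%, 13.4%, 0% and 0% in control 1 to 5. There the plus strand, 10 cytosines, was at 15.3%, 15.0%, 1.20%, 8.92% and 0% in arsenic 1 to 5, against 33.8%, 21.9%, 21.1%, 16.0% and 0% in control 1 to 5. Position 110696718, with the smallest p of the locus, averaged 4.97% ± 7.58 in arsenic and 22.2% ± 13.1 in control (adjusted p = 0.662). The part of coverage in this gap was not tested.

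**Figure D4:**
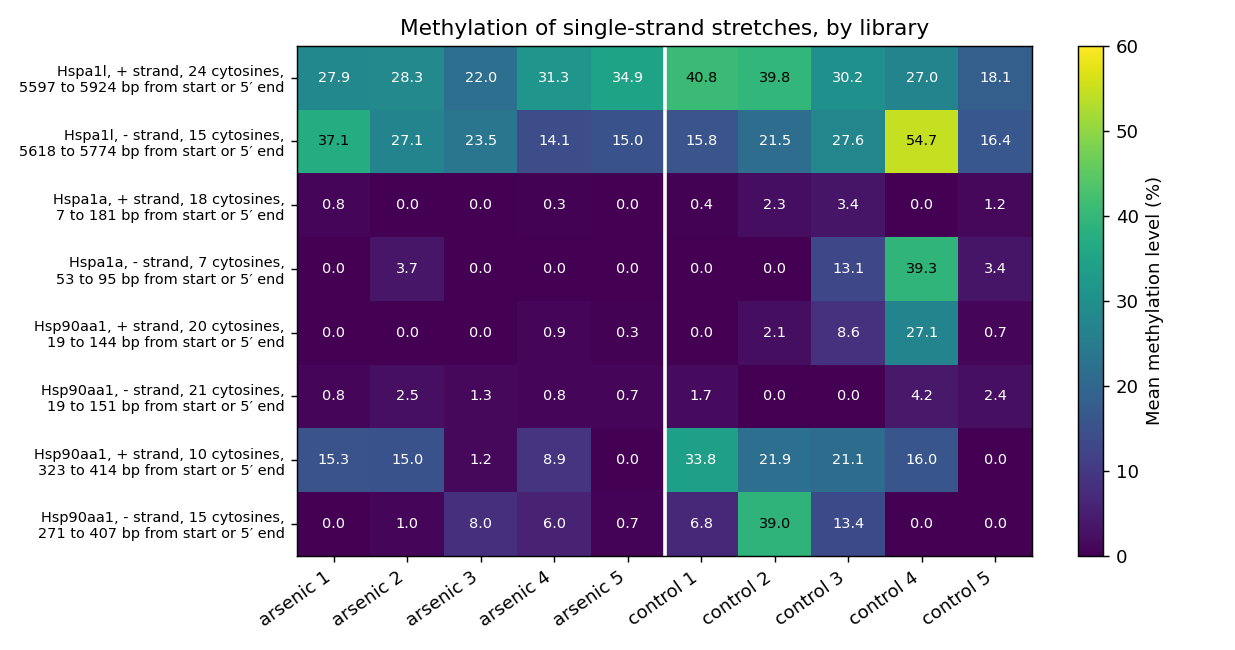
Mean methylation (%) of runs of neighbouring cytosines (gaps of at most 100 bp, at least 5 cytosines on a strand) in Hspa1l, Hspa1a and Hsp90aa1, 1 row per strand and 1 column per library, arsenic left of control. Control 4 is at 39.3% on the minus strand of Hspa1a beside 0% on its plus strand, whereas both Hspa1l stretches are partly methylated in all 10 libraries and the Hsp90aa1 plus strand at 323 to 414 bp is above 10% in 2 arsenic and 4 control libraries.

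Over 42 stretches of this kind in the 10 loci, the highest level was in arsenic 1 to 5 at 4, 2, 5, 1 and 2 and in control 1 to 5 at 6, 4, 3, 9 and 6. Control 4, the library with the fewest reads, led most often. At CpGs covered on both strands, the mean gap between the strands of Hsp90aa1 was lowest in arsenic 5, at 0.926 percentage points, and highest in control 4, at 20.8.

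Dnajb1 (gene ID 81489, chr8:83608175-83612653), the inducible Hsp40, had an unadjusted p of 0.0268 (adjusted p = 0.865, quasi-binomial model) on pooled reads and almost no difference in level. The locus stood at 23.2%, 20.7%, 21.7%, 22% and 22% in arsenic 1 to 5, against 21.3%, 20.9%, 23.4%, 21.6% and 23.6% in control 1 to 5, with means of 21.9% ± 0.864 in arsenic and 22.2% ± 1.27 in control. The groups overlap almost wholly, and limma on these levels gave an adjusted p of 0.980. The difference of -0.231 percentage points became 0.137 without control 5. The read-weighted difference was -4.13 percentage points. Reads within 500 bp of the start, where methylation was 1.32% in arsenic and 1.37% in control, made up 65.1% of the reads in arsenic and 59.8% in control. Away from the start the level went up stepwise: the tile chr8:83609001-83610000 averaged 48.4% ± 5.04 in arsenic and 50.9% ± 5.20 in control, and the tile chr8:83610001-83611000 94.8% ± 2.03 in arsenic and 94.4% ± 2.94 in control. The cytosine at 83608448 was at 0.417% ± 0.932 in arsenic and 15.3% ± 10.8 in control (adjusted p = 0.662), with control 5 at 0 of 25 reads; on the side higher in arsenic, position 83610522 was at 98.4% ± 2.71 in arsenic and 92.2% ± 5.01 in control (adjusted p = 0.702).

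Hspa8 (gene ID 15481, chr9:40801276-40805202), the constitutive Hsp70 whose window also holds the small nucleolar RNA genes Snord14c, Snord14d and Snord14e, had the lowest level of the members. It averaged 2.49% ± 0.855 in arsenic, with libraries between 1.30% and 3.39%, and 2.79% ± 1.15 in control, with libraries between 1.78% and 4.68% (adjusted p = 0.984, quasi-binomial model). The difference of -0.302 percentage points became 0.170 without control 5. Of the 55 cytosines of Hspa8 54 averaged under 10%, and 0 had an unadjusted p under 0.05. The covered cytosines reached 583 bp into the gene and no farther.

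Both heat shock factors had low methylation around the start. Hsf1 (gene ID 15499, chr15:76477362-76501155), whose window also takes in Bop1 and Dgat1, averaged 18% ± 0.975 in arsenic and 19.4% ± 2.33 in control (adjusted p = 0.982, quasi-binomial model). The difference of -1.38 percentage points was -0.495 without control 4, and 0.217 without control 4 and control 5. Its 5′ tile chr15:76477001-76478000 was at 1.74% ± 1.0 in arsenic and 2.32% ± 2.25 in control, and the tiles at chr15:76480001-76481000 and chr15:76481001-76482000 at 91.0% and 83.3% in arsenic and 94.2% and 85.4% in control. At the CpG 3809 bp in, the minus strand was fully methylated in all 10 libraries and the plus strand, position 76481171, averaged 6.14% ± 8.64 in arsenic and 29.7% ± 12.7 in control (adjusted p = 0.676); control 4, at 2 of 13 reads, lies within the arsenic range. The smallest p on the side higher in arsenic was at 76477050, with 5.29% ± 6.81 in arsenic and 0% ± 0 in control (adjusted p = 0.681).

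Hsf2 (gene ID 15500, chr10:57483766-57513143), a factor active in mouse spermatogenesis, has the best covered promoter of the set, and its 31 covered CpGs are those in capitals in its sequence. The 125 cytosines within 1000 bp of its start were at 0.994%, 1.07%, 2.26%, 1.19% and 1.79% in arsenic 1 to 5, against 1.10%, 0.564%, 0.935%, 9.17% and 0.859% in control 1 to 5. Control 4 alone stands apart, and the other 4 control libraries overlap the arsenic range or lie below it. The means were 1.46% ± 0.545 in arsenic and 2.53% ± 3.72 in control (adjusted p = 0.988, quasi-binomial model), and without control 4 the difference turned to 0.595 percentage points from -1.07. The run was again on 1 strand: 30 plus-strand cytosines between 57486190 and 57486393 were at 0% to 1.55% in arsenic, against 22.4% in control 4 and at most 0.502% in the other 4 control libraries, and the minus strand was at 0.864% in control 4. Farther into the gene, 13 minus-strand cytosines between 57486965 and 57487281 were at 1.13% to 11.3% in arsenic, against 31.3% in control 4 and at most 1.44% in the other control libraries. The cytosine at 57486084 had the smallest p, with 6.35% ± 5.31 in arsenic and 0.488% ± 1.09 in control (adjusted p = 0.694).

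Set side by side, the testis paralogs did not differ from the other members in a single direction. Within 500 bp of the start the testis paralogs averaged 0.438% (Hspa4l) to 5.98% (Hspa2, on 3 CpGs) in arsenic and 1.15% to 5.05% in control, and the other members 0.435% (Hspa1a) to 2.46% (Hsp90aa1) in arsenic and 1.37% (Dnajb1) to 8.14% (Hsp90aa1) in control. More than 500 bp into the gene, Hspa2 was at 2.99% in arsenic and 2.58% in control, near Hsf2 at 3.48% in arsenic and 3.95% in control. Hspa4l was at 91.1% in arsenic and 93.8% in control, and Hspa1l lay between, at 29.2% in arsenic and 31.6% in control. Hspa1a was at 88.2% in arsenic and 87.4% in control, but its cytosines there lay around and past its 3′ end, 2763 to 4433 bp from the start. The distances read differ from gene to gene, and members are not replicates of a class, so no test between the classes was made.

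Other chaperones and co-chaperones gave no calls either. Of 64 further genes listed (Hsp70, Hsp90, Hsp60, small heat shock proteins, Hsp40s, Bag proteins and co-chaperones), 63 had enough covered CpGs, and 0 were called. An unadjusted p under 0.05 was found at 1 of them (1.59%, against 5.71% of all loci), the mean was lower in arsenic at 36 and higher at 27 (57.1% lower, against 57.7%), and the median difference was -0.133 percentage points. These loci are not all separate: Hspd1 and Hspe1 had the same 71 covered CpGs and equal levels, and Hspb2 lies within the limits of Cryab. The smallest p-values on the side of lower read-weighted levels belonged to Hspa4, the closest relative of Hspa4l (32.7% ± 1.43 in arsenic, 32.4% ± 0.945 in control, read-weighted difference -4.18, adjusted p = 0.865, quasi-binomial model), Hspb1, a small heat shock protein (2.21% ± 0.330 in arsenic and 3.76% ± 2.08 in control, adjusted p = 0.872), and Ptges3, an Hsp90 partner (0.609% ± 0.170 in arsenic and 2.01% ± 1.44 in control, adjusted p = 0.896). On the higher side stood the constitutive Hsp90ab1 (64.4% ± 0.611 in arsenic and 63.1% ± 1.02 in control), Hsbp1, which binds heat shock factor trimers (30.2% ± 0.816 in arsenic and 30.2% ± 1.2 in control), and Hspb3 (15.3% ± 4.44 in arsenic and 11.4% ± 2.69 in control), with adjusted p of 0.888, 0.893 and 0.896. None passed, and equally weighted levels of Hspa4 and Hsbp1 differed with the opposite sign to their reads.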

How the data were processed

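The deposited table, of the kind methylKit writes when libraries are united (per the file headers), holds for each cytosine and library the counts of all reads, of reads called methylated and of reads called unmethylated by the authors, not normalised. The submitters' processing notes list Trim Galore 0.6.5, Bismark 0.22.3, methylKit 1.22.0 and mm10; their settings are not given. Every cytosine had at least 10 reads in each of 10 libraries, and the strands of a CpG were kept apart. Libraries were grouped by title.

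Loci (gene and 2000 bp beyond both ends), 1000 bp tiles and windows of 1000 bp each side of the start, each with at least 3 covered CpGs, and single cytosines were tested genome-wide on methylated out of all reads with a quasi-binomial logistic model with a group term, a Pearson dispersion moderated over features by limma's method and kept at 1 or more, an F test and Benjamini-Hochberg adjustment over all features of a kind. Levels with an SD weight cytosines equally, so they can differ from the read-weighted difference that the test uses. Gene limits, starts and sequences came from RefSeq on GRCm38.p6. Where the sequence table gave no start, the 5′ end of the gene record was used. For Hspa2, Hspa4l and Hsf2 the start used lies inside the gene record, so cytosines before the start can be within it. Simulated data with known changes were used to test the model. The members, gene lists, tests and thresholds were chosen with earlier results of these data known. All members are described, with the cytosine or tile of smallest p in each direction where its unadjusted p was under 0.05, and the 3 further chaperone genes of smallest p in each direction. Other settings were limma on log2 ratios with an offset of 0.5, a binomial test, a replicate block, leaving out libraries, a coverage of at least 20, merged strands and other windows; limma on equally weighted levels was added after seeing the data. Software was Python 3.11.15, numpy 2.4.6, scipy 1.17.1, pandas 2.3.3, matplotlib 3.10.9, R 4.3.3 and limma 3.58.1.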

Additional observations from a re-analysis of the deposited data

Results flagged for a closer look

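Dixon's 95% critical value was used to flag the highest or lowest library of a group of 5 as set apart. It was passed at 13 of 86 groups of member loci, start windows and tiles (15.1%), and several of these share cytosines. The 1 in 20 that the test allows is for normally distributed values, which levels near 0% need not be. Where the other libraries of a group are at 0%, any methylated read sets the remaining one apart. The 15.1% is therefore not read as an excess. In the arsenic group, arsenic 1 was at 1.82% over the Hspa4l start window and 5.56% in chr3:40744001-40745000 of Hspa4l, and arsenic 4 at 1.56% in chr17:34971001-34972000, shared by Hspa1l and Hspa1a, where the other arsenic libraries had 0% in both tiles. Arsenic 2 was at 9.01% in chr15:76476001-76477000, upstream of Hsf1. In all 13 the library set apart was the highest of its group.

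In the control group, control 4 was the library set apart in 5 of the 13. It stood at 11.3% over the Hsf2 locus (other control libraries 2.62% to 3.50%), 9.17% over the Hsf2 start window, 7.94% in the tile chr10:57486001-57487000 and 17.0% in chr10:57487001-57488000 of Hsf2, and 22.1% in chr15:76478001-76479000 of Hsf1. Control 5 was at 2.70% over the Dnajb1 start window and 7.64% in chr8:83607001-83608000, upstream of Dnajb1. Control 2 was at 7.20% in chr17:34959001-34960000 of Hspa1b, and control 3 at 1.14% in chr9:40800001-40801000 of Hspa8, where the other control libraries had 0%.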

How the results depend on the processing

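No setting called a member or one of the 63 further chaperone loci. Limma on log2 ratios called 1 locus (Xlr5c, higher in arsenic) and 1 tile, on X. A binomial test that takes reads as replicates called 65 loci, 1986 tiles, 82352 cytosines and 53 start windows, and leaves out the spread between libraries. Leaving out each library in turn gave 0 calls of each kind. Replicate numbers did not pair the libraries: deviations of same-numbered libraries correlated at -0.0127 to 0.0165. With the replicate block 0 features were called, and the Hsp90aa1 tile had an adjusted p of 0.239, against 0.806 without the block.

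Settings that change only the test cannot move a difference in level. Under the others its sign turned in 28 cases; the cause was not tested. At coverage of at least 20 reads it became -0.336 (Hspa2), 0.128 (Hspa1a), 0.459 (Dnajb1) and 0.394 (Hsf2) for loci, and -0.184 (Hspa2), 0.0804 (Dnajb1) and 0.467 (Hsf2) for start windows. Without control 4 and control 5 it became 0.0556 (Dnajb1), 0.229 (Hspa8), 0.217 (Hsf1) and 0.60 (Hsf2) for loci, and 0.328 (Dnajb1) and 0.593 (Hsf2) for start windows. With strands merged the start windows of Hspa2 and Dnajb1 gave -0.257 and 0.167. Read weighting gave -0.161 for Hspa2, 5000 bp flanks 0.208 for Hspa4l, and the gene body alone 0.610 for Hsp90aa1. Most covered cytosines of Hsp90aa1 lie upstream of its 5′ end, so its gene body value rests on few. Leaving out 1 library gave ranges that cross 0 for the loci of Dnajb1 (-0.538 to 0.137), Hspa8 (-0.553 to 0.170) and Hsf2 (-1.51 to 0.661) and the start windows of Dnajb1 (-0.295 to 0.356) and Hsf2 (-1.56 to 0.595). At the minimum coverage of a cytosine, 0 of 10 reads allows a share of up to 30%.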
